A study of Homo sapiens with 5 samples.

Results

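MDA-MB-231 cells treated for 4 h with LU-102 were compared with MDA-MB-231 cells treated for 4 h with bortezomib, which the study used as its control for pathways that proteasome inhibition changes. The comparison holds 2 of the 5 libraries of the series, 1 for each agent, picked by the treatment named in their labels. The other libraries are CGI-1746, a BTK inhibitor, CGI-1746 plus LU-102, and mock. Mock serves below as the untreated level of both agents, which therefore share it. MDA-MB-231 is a mesenchymal-like breast cancer cell line that lacks the oestrogen receptor, and all 5 libraries came from this one line with no genetic change named. Doses of both agents and the content of the mock treatment are not named by the sources used here, so the time was matched and the doses may not have been. Each condition has 1 library of total RNA, so no value has a replicate error, no difference was tested, and every statement describes these libraries.

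The proteasome degrades proteins tagged with ubiquitin. Its core holds catalytic sites that cut after different residues, known as chymotrypsin-like, trypsin-like and caspase-like sites. Bortezomib, a drug used in multiple myeloma, binds the chymotrypsin-like site most tightly, whereas LU-102 was developed as an inhibitor of the trypsin-like site. Cells with a blocked proteasome are known to induce HSP70 chaperones through the factor HSF1 and proteasome subunits through NFE2L1.

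The deposited table gives 4202 genes with a normalized signal per library, called a level here, which behaves as reads per base of gene, scaled by a factor for each library. The scale is not named in the sources used here. Of these, 4192 genes had a level of at least 1 with either agent and were compared as log2((LU-102 + 1)/(bortezomib + 1)), and the other 10 were not compared. PCMTD2, at 1.0008 with LU-102 and 0.744 with bortezomib, was just inside this minimum, and LOC646214, at 0.999 and 0.812, just outside. For every gene in the table the 5 levels summed to 5.04 or more. A gene low in the other 4 libraries and raised with bortezomib alone could thus be missing, while one lowered with bortezomib alone is kept more easily. With LU-102 4171 genes stood at 1 or more, with bortezomib 2231 and in mock 4161. How far this smallest sum tilts the split of higher and lower genes below was not tested. Within each library, the levels of all genes summed to 126120 with LU-102, 135512 with bortezomib and 99255 in mock. Protein-coding genes held 29.5% of that sum with LU-102, 9.42% with bortezomib and 38.3% in mock, while short RNAs and ribosomal RNA genes summed to 86866 with LU-102, 121708 with bortezomib and 59114 in mock. These are shares of levels and not of reads, and their part in the gene differences below was not tested. A level of 1 over 2000 bases stands for about 34.2 reads with LU-102, 37.2 with bortezomib and 33.7 in mock. Genes of the mesenchymal state were present, with 11 of 12 compared. The filament gene VIM had 82.3 with LU-102, 18.3 with bortezomib and 92.1 in mock. Of 6 markers of blood cells, 4 of endothelium and 5 of fibroblasts only CD68, a lysosomal protein, was compared, at 7.24 with LU-102, 2.26 with bortezomib and 7.32 in mock, and the other markers were not analysed here. Fewer cells and less RNA per cell cannot be told apart in these data.

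The LU-102 library lay close to mock and the bortezomib library far from it. LU-102 levels were 2-fold or more above bortezomib levels in 1805 genes (43.1%) and 2-fold or more below in 57 genes (1.36%), or 44.4% either way, with a median log2 difference of 0.91 over all genes. The lower and upper quartiles of all genes were 0.55 and 1.31, and 3877 genes (92.5%) were above 0. Against mock, LU-102 was 2-fold or more higher in 3 genes (0.0715%), all of them small nucleolar RNAs, and lower in none of 4193. These 3 were SNORA71D, SNORA71A and SNORD3A, with 7, 8 and 180 reads with LU-102 against 1, 2 and 82 in mock. Bortezomib was 2-fold or more higher than mock in 58 genes (1.38%) and lower in 2015 (48.1%) of 4189, or 49.5% either way. No gene at a level of at least 5 lay 2-fold above mock with one agent and 2-fold below it with the other.

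The agents were set apart by the bortezomib side. In all 1805 genes that were higher with LU-102 the bortezomib level was the lowest of the 5 libraries, and in all 57 that were lower it was the highest. Over all compared genes the bortezomib level was the lowest of the 5 in 90.9% and the highest in 5.56%. These shares hold for genes whose 5 levels sum to 5.04 or more, and their dependence on that limit was not tested. LU-102 was within 1.5-fold of mock in 1802 of the 1805 genes and in 47 of the 57. Genes just past the 2-fold threshold were ELOF1, PRPF4 and DHX30 above it and SNORA40B, SCARNA13 and RTL8B below it. Genes just short of it were ITGA6, SERF2 and PTP4A2 on the higher side and SNORA80D, CHPF and UQCRHL on the lower side.

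The shift shared by most genes depends on the scale. With both libraries scaled by the median of gene ratios, or to an equal sum over protein-coding genes, the median difference was -0.12 or -0.04, in place of 0.91 as deposited. The split of calls turned with it, to 200 genes higher and 433 lower of 3676 under the first scaling, and to 227 higher and 381 lower of 3707 under the second. For this reason each difference is given below as deposited and, where the text says relative, less the all-gene median. On the relative scale 333 genes (7.94%) were 2-fold or more higher with LU-102 and 269 (6.42%) were lower.

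**Figure D1:**
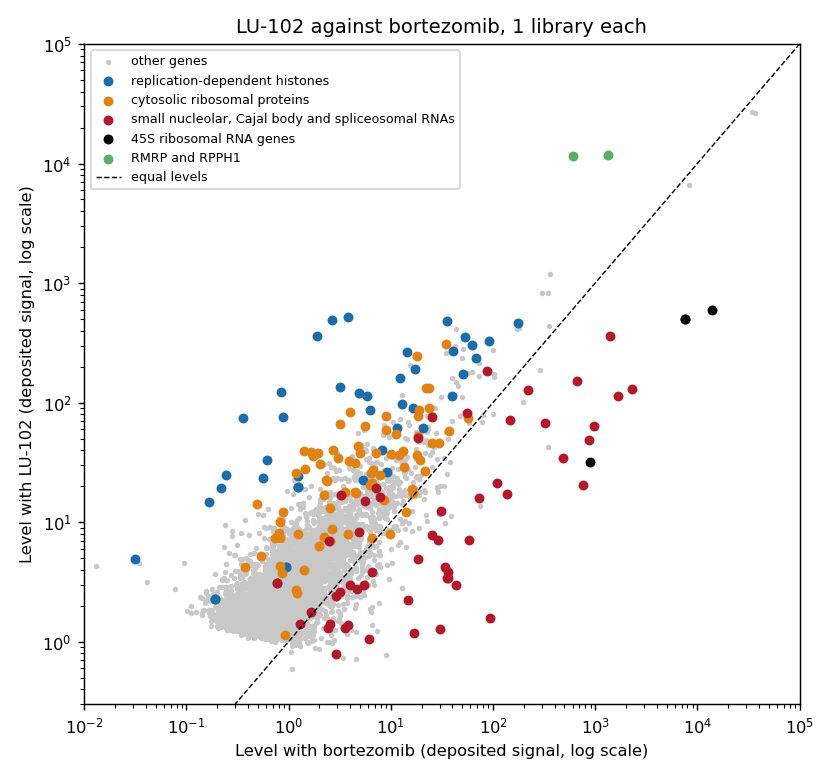
Level of each of the 4192 genes with LU-102 (vertical, log scale) and with bortezomib (horizontal, log scale), as deposited, 1 library each. Most genes lie above the dashed line of equal levels, with histones farthest above it, while 45S ribosomal RNA genes and most small nuclear RNAs lie below it.

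The plot of levels with both agents shows these classes on opposite sides of the bulk of genes. Protein-coding genes had a median difference of 0.93, and the 66 short RNAs and ribosomal RNA genes a median of -1.01. Of the 57 lower genes 34 were short RNAs or ribosomal RNA genes and 20 were protein-coding, whereas 1719 of the 1805 higher genes were protein-coding and 11 were short or ribosomal RNAs.

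Replication-dependent histone genes stood farthest above the rest. Their proteins package newly made DNA in S phase, and their mRNAs end in a stem-loop in place of a poly(A) tail. All 42 measured genes were 2-fold or more higher with LU-102 than with bortezomib, against 43.1% of all genes, with a median of 3.20 as deposited and 2.29 relative. Their median difference from mock was 0.21 with LU-102 and -2.99 with bortezomib. H2B genes lay apart within the family: the 12 H2B genes had a median of 4.88, the 12 H2A genes 2.54, the 8 H3 genes 2.29, the 8 H4 genes 1.88 and the 2 linker genes of the H1 class 3.51. The relative median of the family ranged from 1.87 to 2.29 over all alternatives tried, and 26 of the 42 were 2-fold or more higher, with none lower, under each of the other 2 scalings.

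H2BC17 had a level of 486 with LU-102, 2.65 with bortezomib and 514 in mock, a difference of 7.06 and the highest of all genes. H2BC11 had 358 with LU-102, 1.90 with bortezomib and 285 in mock. H2BC4 had 523 with LU-102, 3.81 with bortezomib and 452 in mock. All 3 were near their mock level with LU-102 and far apart between the agents, with H2BC17 at a ratio of 184 between the plain levels. At the other end of the family H4C2 had 463 with LU-102, 174 with bortezomib and 497 in mock, a difference of 1.40. H2AC17, next to H2BC17 on chromosome 6, had 265 with LU-102, 14.4 with bortezomib and 233 in mock. Histone copies are near-identical, and 3 pairs (H3C14 with H3C15, H4C14 with H4C15, H2AC18 with H2AC19) had equal levels in each library, so the share of each copy is uncertain.

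The stem-loop is shown for H2B genes because it is the feature that sets these mRNAs apart from the polyadenylated histone variants below. Sequences are from GENCODE 29 transcripts on GRCh38, 5′ to 3′, and capitals mark the motif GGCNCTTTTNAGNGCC, searched on the transcript strand. It was present in some transcript of 18 of the 42 histone genes, transcripts that run past the gene included, and in 0.0682% of all GENCODE genes. The transcripts lie at chr6:27807444-27807931 (minus strand) for H2BC13, chr6:27838662-27865798 (plus) for H2BC15 and chr6:26123356-26123926 (minus) for H2BC4.
H2BC13: cccaaaGGCTCTTTTCAGAGCCactcac
H2BC15: tacaacGGCTCTTTTCAGAGCCaccta
H2BC4: cccaaaGGCTCTTTTAAGAGCCacccag
H2BC13, at the difference 5.79, matches the motif, as does H2BC4 at 6.77. The H2BC15 transcript, at 6.08, matches too, but it runs far past the RefSeq end of that gene at chr6:27839110. Its match lies near the 3′ end of that transcript, so it cannot be taken as the stem-loop of the short H2BC15 mRNA. H2BC13 had a level of 73.8 with LU-102, 0.356 with bortezomib and 60.7 in mock, and H2BC15 had 123 with LU-102, 0.838 with bortezomib and 123 in mock.

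The 8 polyadenylated histone variants, which are made outside S phase too, had a median of 1.19 (0.28 relative), and 4 of them (50.0%) were 2-fold or more higher, against 43.1% of all genes. H2AZ1, which encodes a variant found at gene starts, had 89.5 with LU-102, 18.05 with bortezomib and 101 in mock. Other S phase genes lay well below the histones. The 22 measured, which serve DNA replication, had a median of 1.25 (0.33 relative) with 16 higher, or 72.7%, and 1 was higher under each of the other 2 scalings. TYMS, which makes thymidylate, had 15.7 with LU-102, 2.03 with bortezomib and 17.5 in mock. Genes of G2 and M phase had a median of 1.52 (0.60 relative) and 23 of 29 were higher, or 79.3%, against 4 or 5 higher and 1 lower under those scalings. MKI67, a marker of dividing cells, had 22.8 with LU-102, 2.80 with bortezomib and 23.6 in mock, and CDC25B, a phosphatase of mitotic entry, was the lowest of this list at a difference of -0.11.

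**Figure D2:**
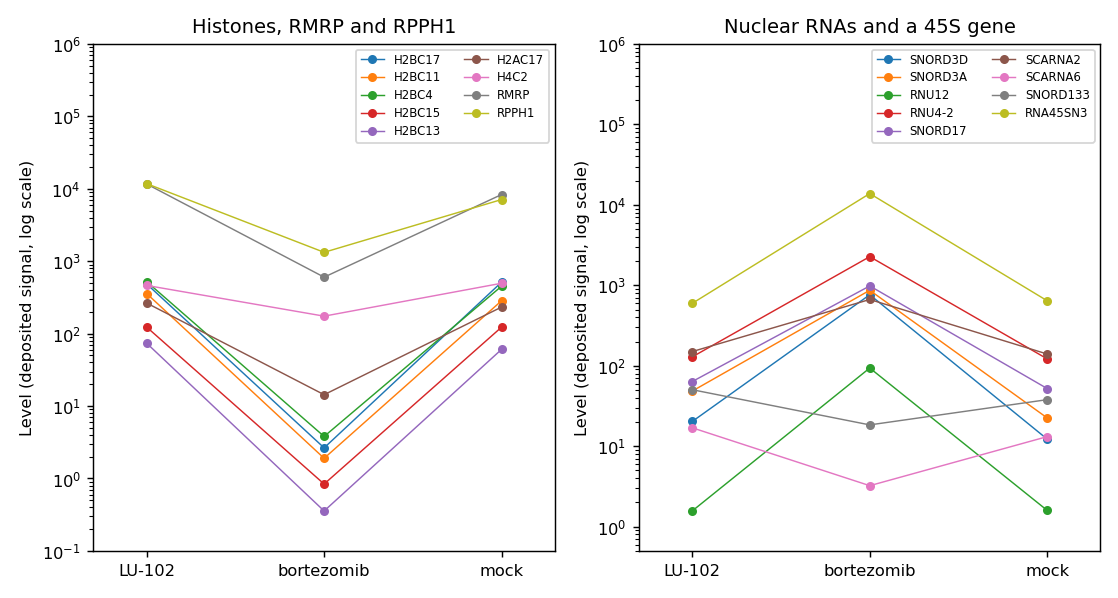
Level (deposited signal, log scale) in the LU-102, bortezomib and mock libraries for histone genes with RMRP and RPPH1 (left) and for nuclear RNAs with a 45S ribosomal RNA gene (right), each point 1 library. In the left panel every bortezomib value is the lowest of its 3, and in the right panel it is the highest except for SCARNA6 and SNORD133.

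Among noncoding RNAs at a level of at least 5 with either agent RMRP had the largest difference upwards, and RPPH1 came after it and 2 transcribed pseudogenes. RMRP is the RNA of RNase MRP, an enzyme that cuts precursor ribosomal RNA, and RPPH1 is that of RNase P, which trims the 5′ ends of transfer RNAs. RMRP had a level of 11658 with LU-102, 603 with bortezomib and 8339 in mock. RPPH1 had 11783 with LU-102, 1328 with bortezomib and 7110 in mock. For both the bortezomib library stood alone at the low end, as the plot of levels by library shows. Reads of single-exon short RNAs can be recovered from level times length, and RMRP then had 53766 reads with LU-102 and 3027 with bortezomib. Its ratio was 19.3, with a 95% exact interval of 18.6 to 20.1, and that of RPPH1 was 8.87 (8.67 to 9.08). These intervals cover counting error only, since reads without molecular identifiers are not independent molecules.

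The RMRP gene is shown whole because it carried this difference. The sequence is the GENCODE 29 transcript on GRCh38, chr9:35657751-35658018, minus strand, with T for U.
RMRP: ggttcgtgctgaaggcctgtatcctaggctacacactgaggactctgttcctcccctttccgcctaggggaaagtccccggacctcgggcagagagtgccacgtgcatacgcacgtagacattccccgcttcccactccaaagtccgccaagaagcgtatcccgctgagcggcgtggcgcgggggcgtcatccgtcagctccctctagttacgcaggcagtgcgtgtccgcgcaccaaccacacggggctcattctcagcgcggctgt
The other 4 RNAs of this list, made like RMRP and RPPH1 by RNA polymerase III, lay between -0.64 and -0.32. RN7SL2, an RNA of the signal recognition particle, had 26281 with LU-102, 36441 with bortezomib and 16597 in mock. RN7SK, which holds back the elongation factor P-TEFb, had 6575 with LU-102, 8193 with bortezomib and 5360 in mock. Both agents were above mock for these, LU-102 by 0.29 to 0.77 on the log2 scale over the 6 RNAs of the list.

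Ribosomal RNA genes and U3 RNA were at the opposite end. The 4 genes of the 45S ribosomal RNA precursor, which also hold the mature ribosomal RNA sequences, were lower with LU-102 by log2 differences of -4.78 to -3.91. RNA45SN3 had 597 with LU-102, 13832 with bortezomib and 643 in mock. RNA45SN2 had 31.7 with LU-102, 897 with bortezomib and 33.8 in mock. With LU-102 the 4 genes were 0.09 to 0.20 below mock on the log2 scale. The copies are near-identical, with RNA45SN1 and RNA45SN5 equal in each library, so they count as one signal, and how ribosomal RNA was removed before sequencing is not stated in the sources used here.

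Small nucleolar RNAs guide the cutting and modification of ribosomal RNA. Of 34 measured, 21 were 2-fold or more lower with LU-102 and 5 higher, against 1.36% and 43.1% of all genes, with a median of -1.64 (-2.56 relative). Box C/D RNAs, which guide methylation, had a median of -2.94 over 12, and box H/ACA RNAs, which guide pseudouridylation, one of -1.07 over 22. The U3 RNA genes, needed for the early cuts in the precursor, were among the lowest. SNORD3A had 180 reads with LU-102, 3504 with bortezomib and 82 in mock, a ratio of 0.0559 between the agents (0.0479 to 0.065). SNORD3D had 75.5 reads with LU-102, 3083.5 with bortezomib and 45 in mock, where the source of fractions of 0.5 was not tested. Both were above mock with both agents, and far more so with bortezomib. SNORD17 had a level of 63.7 with LU-102, 983 with bortezomib and 52.1 in mock. Not all members went this way: SNORD133 had 50.4 with LU-102, 18.4 with bortezomib and 37.9 in mock, and SNORA23 had 19.2, 7.11 and 16.3 in that order. Those 2 turned to the other sign, between -0.19 and -0.09, under the other scalings.

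Spliceosomal RNAs showed the lowest gene of all. RNU12, the RNA that pairs with the branch point of minor-class introns, had 4 reads with LU-102, 261.5 with bortezomib and 4 in mock, a ratio of 0.0168 (0.0045 to 0.0431). RNU4-2, a U4 gene of the major spliceosome, had 320 reads with LU-102, 6129 with bortezomib and 297.5 in mock. Of 7 measured, 4 were 2-fold or more lower and none higher, against 1.36% and 43.1% of all genes. Their median was -1.96 (-2.88 relative). The remaining 3, RNU6ATAC, RNVU1-6 and RNVU1-14, had between 3 and 23 reads with either agent and intervals that hold 1.

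SNORD3A is shown as a U3 RNA gene of the box C/D class, and RNU12 because it had the lowest difference of all genes. In SNORD3A (GENCODE 29 on GRCh38, chr17:19188016-19188232, plus strand) capitals mark the box C and box D motifs TGATGA and CTGA near the 3′ end. In RNU12 (chr22:42615244-42615393, plus strand) they mark ATTTTTG, the site bound by Sm proteins.
SNORD3A: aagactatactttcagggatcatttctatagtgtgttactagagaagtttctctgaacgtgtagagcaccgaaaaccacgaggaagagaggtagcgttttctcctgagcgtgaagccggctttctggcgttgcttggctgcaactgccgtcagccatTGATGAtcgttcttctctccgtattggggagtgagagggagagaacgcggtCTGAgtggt
RNU12: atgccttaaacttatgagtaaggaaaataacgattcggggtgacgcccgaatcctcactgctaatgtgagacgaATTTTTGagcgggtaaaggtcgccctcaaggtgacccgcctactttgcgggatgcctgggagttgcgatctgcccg
The 217 and 150 bases of these RNAs are covered by fewer reads with LU-102 than with bortezomib.

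Small Cajal body RNAs, which guide modification of spliceosomal RNAs, were split as deposited. Of 13 measured, 5 were 2-fold or more lower and 4 higher, against 1.36% and 43.1% of all genes. Their median was -0.32 (-1.23 relative). On the relative scale 1 was higher and 7 were lower. Under median-of-ratios scaling none was higher and 8 were lower, and at an equal protein-coding sum none and 7. SCARNA2 had 1078 reads with LU-102, 5211 with bortezomib and 990 in mock, a ratio of 0.225 (0.211 to 0.241). SCARNA6 went the other way, with 77 reads with LU-102, 16 with bortezomib and 59 in mock, a ratio of 5.24 (3.03 to 9.62). Over all 62 short RNAs with recovered reads the interval of the ratio, as deposited, lay below 1 for 33, above 1 for 12, and held 1 for 17. The factor of the median-of-ratios scaling, LU-102 over bortezomib, was 3.11. Of these 12 RNAs only RMRP and RPPH1, with intervals from 18.6 and from 8.67, lay wholly above that factor. The long nuclear RNAs differed by less than 2-fold as deposited and lay below the bulk of genes. MALAT1 had 437 with LU-102, 350 with bortezomib and 432 in mock, a difference of 0.32 (-0.59 relative). NEAT1, which builds paraspeckles, had 17.8 with LU-102, 19.4 with bortezomib and 14.8 in mock, a difference of -0.12 that was past 2-fold on the relative scale (-1.03).

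**Figure D3:**
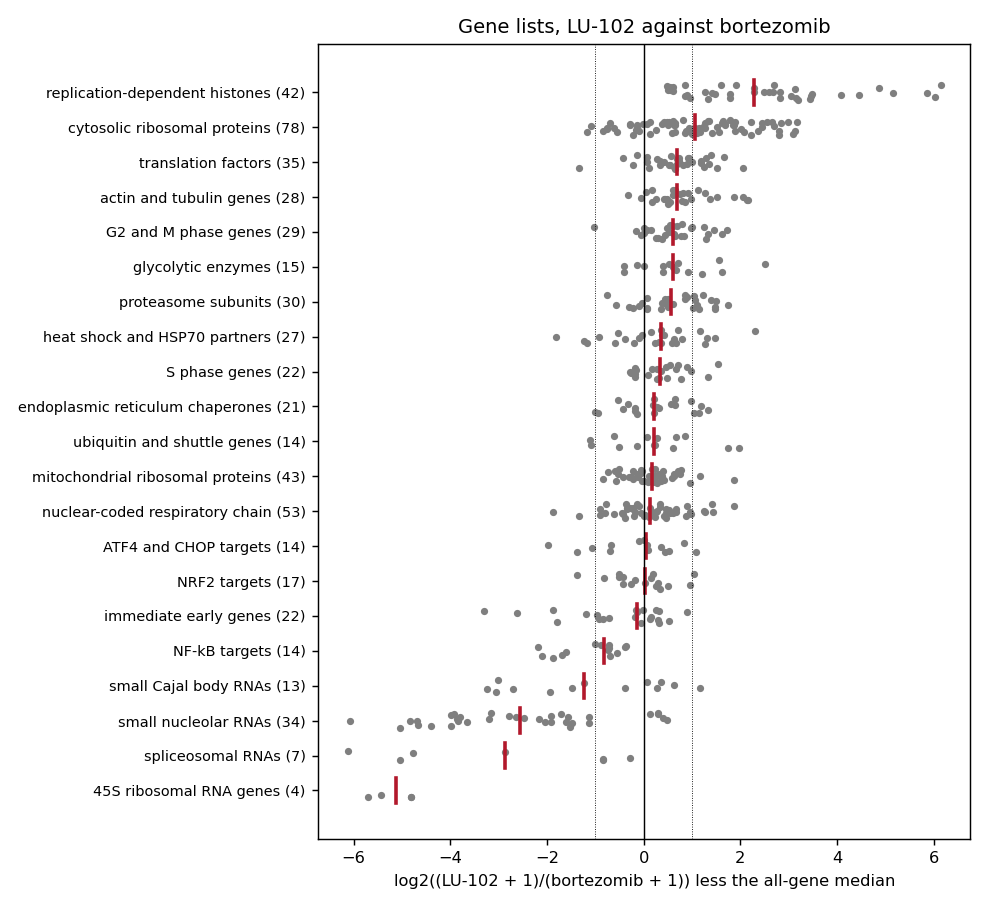
Each point is 1 gene, placed by its log2 difference between LU-102 and bortezomib less the all-gene median, with the number of genes of each list in brackets, red bars at list medians and dotted lines at 2-fold. Histones have the highest median at 2.29 and the 45S ribosomal RNA genes the lowest at -5.13, while most coding lists lie within 1 of 0.

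The plot of gene lists places the protein-coding groups between these ends. Cytosolic ribosomal protein genes came next after histones. All 78 were measured, with a median of 1.99 (1.07 relative). Of them 61 (78.2%, against 43.1% of all genes) were 2-fold or more higher with LU-102 and none lower. On the relative scale 41 were 2-fold higher, against 7.94% of all genes. Under median-of-ratios scaling 31 were higher and 7 lower, and at an equal protein-coding sum 32 and 7. The members were spread over more than 4 log2 units. RPL29 had 83.7 with LU-102, 3.96 with bortezomib and 77.7 in mock. RPL19 had 39.3 with LU-102, 1.43 with bortezomib and 41.8 in mock. Both are large-subunit genes and were close to mock with LU-102. At the low end RPS28 had 7.93 with LU-102, 9.73 with bortezomib and 7.34 in mock. RPS27A, which encodes ubiquitin fused to a ribosomal protein, had 12.2 with LU-102, 14.004 with bortezomib and 11.03 in mock. These genes have many processed pseudogenes, so reads may be split among copies. The relative median was between 0.70 and 0.92 under the 6 alternatives that moved it below 2-fold.

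Ribosomal protein mRNAs are known for a run of pyrimidines after a C at their 5′ end, which sets their translation. The run was searched on the gene strand as C followed by at least 4 pyrimidines in the window from 10 bases before to 20 after each RefSeq start (GRCh38.p14). A run counted where it began no later than 5 bases after the start and reached at least to 2 bases before it. A counted run can thus lie wholly before the annotated start, outside the annotated transcript. It was found for 79.4% of the 63 ribosomal protein genes with a window and for 23.3% of all 27305 windows. Those at both ends of the group are shown, with such runs in capitals: RPL29 at chr3:51995876-51995905 (minus), RPL19 at chr17:39200273-39200302 (plus), RPS28 at chr19:8321486-8321515 (plus) and RPS27A at chr2:55231893-55231922 (plus).
RPL29: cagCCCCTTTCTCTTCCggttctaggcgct
RPL19: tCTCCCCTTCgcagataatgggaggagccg
RPS28: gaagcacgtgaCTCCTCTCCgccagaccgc
RPS27A: agtgacacacaagacccagactcttcccta
RPL29 and RPL19, with differences of 4.09 and 4.05, hold a counted run, and so does RPS28 at -0.26. The run of RPL19 ends just before the annotated start. RPS27A at -0.19 has no run that begins so early.

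Translation factors followed the ribosomal proteins, with 29 of 35 higher (82.9% against 43.1% of all genes) and a median of 1.61 (0.70 relative). Under the other scalings 3 or 4 were higher and 1 lower. TPT1, a growth-related protein, had 28.4 with LU-102, 2.77 with bortezomib and 28.8 in mock. EIF4A2, an RNA helicase of initiation and the host of several small nucleolar RNAs, was the exception at 15.6 with LU-102, 21.3 with bortezomib and 18.1 in mock. Mitochondrial ribosomal proteins were nearer the bulk, with 25 of 43 (58.1%) higher and a median of 1.09 (0.17 relative), a value that was -0.21 relative among genes at a level of at least 5. Nuclear-coded respiratory chain genes had 29 of 53 (54.7%) higher and a median of 1.05 (0.13 relative). ATP5F1B, the catalytic subunit of ATP synthase, had 27.3 with LU-102, 3.08 with bortezomib and 28.6 in mock.

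Proteasome subunits are the family most directly tied to both agents. Of 39 genes 30 were measured, 21 were 2-fold or more higher with LU-102 than with bortezomib and none lower, against 43.1% and 1.36% of all genes, with a median of 1.47 (0.56 relative). Under the other scalings 7 or 8 were higher and none lower. Against mock their median was -0.02 with LU-102 and -1.46 with bortezomib, and in all 30 the bortezomib level was the lowest of the 5 libraries, as in 90.9% of all genes. PSMB5, the subunit with the chymotrypsin-like site, had 6.91 with LU-102, 2.08 with bortezomib and 6.57 in mock. PSMB6, with the caspase-like site, had 13.6 with LU-102, 2.78 with bortezomib and 12.8 in mock. PSMB7, with the trypsin-like site, was not analysed here. PSMB8, the chymotrypsin-like subunit of the immunoproteasome, had 4.43 with LU-102, 0.597 with bortezomib and 4.65 in mock. The family ran from PSMB2, a core subunit without a catalytic site, at 0.16, to PSMD2 of the regulatory cap at 2.66. PSMB2 had 1.71 with LU-102, 1.42 with bortezomib and 2.15 in mock, and PSMD2 had 40.6, 5.59 and 40.2 in that order. The 12 core subunits had a median of 1.59 and the 17 subunits of the cap one of 1.41.

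The 9 activators and assembly factors of the proteasome had a median of 0.97 (0.06 relative). Of these 4 were higher (44.4%, near the 43.1% of all genes). The relative median turned below 0 under both other scalings and when centred on genes of like level, to -0.13 at the lowest. PSME2, an interferon-induced activator, had 5.27 with LU-102, 0.712 with bortezomib and 4.90 in mock. NFE2L1, the factor that drives proteasome genes when the proteasome is blocked, had 16.4 with LU-102, 5.46 with bortezomib and 16.2 in mock, a difference of 1.43 that was -0.04 under median-of-ratios scaling.

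UBB, which encodes ubiquitin units in tandem, was higher with LU-102, at 266 with LU-102, 41.5 with bortezomib and 290 in mock. SQSTM1, which carries ubiquitin-tagged cargo to autophagy, had 8.97 with LU-102, 10.5 with bortezomib and 8.81 in mock, a difference of -0.20 as deposited and -1.12 relative. Over the 14 ubiquitin and shuttle genes 8 (57.1%) were 2-fold or more higher, against 43.1% of all genes, with a median of 1.13 (0.22 relative), a value that turned to -0.20 relative among genes at a level of at least 5. Under each of the other 2 scalings 2 of the 14 were higher and 3 lower. The 20 ubiquitin conjugating and activating enzymes had a median of 0.83 (-0.09 relative, turning to 0.11 in another setting) with 7 of them higher, and UBE2S, which extends ubiquitin chains in mitosis, had 12.9 with LU-102, 4.31 with bortezomib and 10.9 in mock.

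Heat shock genes were split between inducible HSP70 and the other chaperones. Of 27 measured, 17 were 2-fold or more higher with LU-102 and none lower, or 63.0% against 43.1% of all genes, with a median of 1.27 (0.35 relative). On the relative scale 5 were higher and 3 lower, and under each of the other 2 scalings 2 were higher and 3 lower. HSPA1B, an inducible HSP70 gene, had 79.7 with LU-102, 99.5 with bortezomib and 62.2 in mock. HSPA1A, whose coding sequence is nearly identical, had 31.6 with LU-102, 37.98 with bortezomib and 24.0 in mock, so the share of each copy is uncertain. HSPA6, an HSP70 gene expressed under stress, had 1.91 with LU-102, 4.44 with bortezomib and 1.43 in mock. With LU-102 these 3 were above mock by log2 ratios of 0.35 for HSPA1B, 0.39 for HSPA1A and 0.26 for HSPA6. With bortezomib they were the highest of the list above mock, at 0.67 for HSPA1B, 0.64 for HSPA1A and 1.16 for HSPA6. HSPA8, the constitutive member, was the farthest apart, at 416 with LU-102, 43.8 with bortezomib and 429 in mock. HSP90AB1, the constitutive HSP90, had 235 with LU-102, 49.7 with bortezomib and 252 in mock. DNAJB1, an HSP70 partner induced by heat, had 11.4 with LU-102, 4.56 with bortezomib and 10.6 in mock, a difference of 1.16 that turned to -0.28 and -0.20 under the other scalings. HSP90AA1, the inducible HSP90, turned likewise, with 1.23 as deposited and -0.30 and -0.21 as scaled. BAG3 and ZFAND2A, which are known targets of HSF1, had differences of 0.38 and -0.01.

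**Figure D4:**
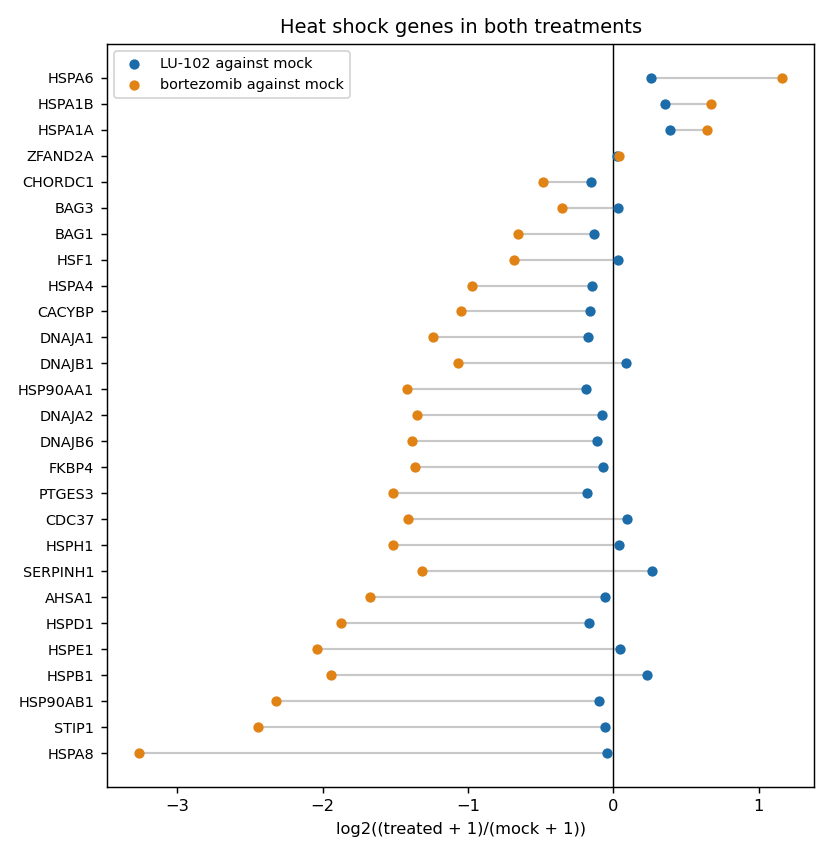
Log2 ratio to mock (level + 1 in each) of the 27 heat shock genes, with LU-102 in blue and bortezomib in orange, 1 library each and the same mock for both. LU-102 values stay between -0.19 and 0.39, while bortezomib values run down to -3.26 for HSPA8 and up to 1.16 for HSPA6.

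The plot of heat shock genes against mock shows the LU-102 values in a narrow band and the bortezomib values spread on both sides of it. The 250 bases before the start are shown for HSPA6 and HSPA1B, which were lower with LU-102 than with bortezomib, and for HSPA8, which was higher. HSF1 is known to bind inverted GAA units, and capitals mark GAANNTTC and TTCNNGAA, each of which reads alike on both strands. Sequences are from RefSeq (GRCh38.p14), at chr1:161524290-161524539 (plus) for HSPA6, chr6:31827488-31827737 (plus) for HSPA1B and chr11:123062137-123062386 (minus) for HSPA8.
HSPA6: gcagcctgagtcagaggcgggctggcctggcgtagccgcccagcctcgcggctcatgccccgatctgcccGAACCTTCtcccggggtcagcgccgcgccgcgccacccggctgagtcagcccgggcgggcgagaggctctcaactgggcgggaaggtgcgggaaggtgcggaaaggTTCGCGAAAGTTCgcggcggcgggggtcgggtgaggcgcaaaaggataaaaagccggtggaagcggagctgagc
HSPA1B: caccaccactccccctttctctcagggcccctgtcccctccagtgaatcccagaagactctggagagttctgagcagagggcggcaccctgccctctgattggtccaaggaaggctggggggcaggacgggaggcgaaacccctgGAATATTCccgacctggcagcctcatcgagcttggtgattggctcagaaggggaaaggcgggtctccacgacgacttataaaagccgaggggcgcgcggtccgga
HSPA8: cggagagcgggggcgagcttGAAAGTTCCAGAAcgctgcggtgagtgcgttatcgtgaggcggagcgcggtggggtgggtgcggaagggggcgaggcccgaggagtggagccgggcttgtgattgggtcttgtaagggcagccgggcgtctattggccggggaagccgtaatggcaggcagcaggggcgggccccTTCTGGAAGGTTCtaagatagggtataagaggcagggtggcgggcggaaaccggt
The windows hold 3 matches for HSPA6, 1 for HSPA1B and 4 for HSPA8, overlapping ones counted. Of 25 heat shock genes with a window 10 hold a match, against 11.7% of all 27305 windows, and 5 hold 3 units in a row, against 0.439%. Both HSPA6, at a difference of -0.90, and HSPA8, at 3.22, are among those 5, so the motif stood on both sides of the comparison.

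Genes of the unfolded protein response were mixed. The 21 chaperones of the endoplasmic reticulum had a median of 1.13 (0.22 relative) with 13 (61.9%, against 43.1% of all genes) higher. Under each of the other 2 scalings none of 19 was higher and 2 were lower. P4HB, a disulfide isomerase, had 17.1 with LU-102, 2.84 with bortezomib and 16.6 in mock. DDIT3, which encodes the stress factor CHOP, had 3.17 with LU-102, 3.31 in mock and, near the floor with few reads, 0.041 with bortezomib. ATF4, which acts above it, was close between the agents as deposited, at 68.0 with LU-102, 58.0 with bortezomib and 77.5 in mock. PPP1R15A, a CHOP target that restores translation, had 25.5 with LU-102, 35.7 with bortezomib and 24.4 in mock. Over the 14 targets of ATF4 and CHOP 6 were higher (42.9%, close to the 43.1% of all genes) and 1, CEBPB, was lower, with a median of 0.96 (0.04 relative) that turned to as low as -0.60 relative in other settings. The 17 targets of NRF2, the oxidative stress factor, had a median of 0.94 (0.03 relative) with 8 higher (47.1%, also near the share of all genes), and turned to as low as -0.55 relative. HMOX1, which degrades haem, was the lowest of them at 5.33 with LU-102, 7.80 with bortezomib and 4.44 in mock, and TXN, thioredoxin, the highest at 8.43, 1.44 and 9.18 in that order.

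NF-kB targets were the coding list farthest below the bulk. None of the 14 measured was 2-fold or more higher with LU-102, against 43.1% of all genes, and 2 were lower, with a median of 0.10 (-0.81 relative). The relative median stayed below 0 in each alternative tried, between -1.32 and -0.31. CXCL8, a neutrophil chemokine, had 11.8 with LU-102, 29.7 with bortezomib and 15.4 in mock. CSF2, a myeloid growth factor, had 1.25 with LU-102, 4.11 with bortezomib and 2.34 in mock. IER3, a stress-induced survival gene, had 101 with LU-102, 199 with bortezomib and 111 in mock. In all 3 the bortezomib level was above mock and the LU-102 level below it, which did not hold for the list as a whole. Its median against mock was -0.01 with LU-102 and -0.07 with bortezomib. The bortezomib level was the lowest of the 5 libraries in 7 of the 14 genes and the highest in 6. NFKB2, a subunit of NF-kB, was near equal as deposited, at 5.34 with LU-102, 5.17 with bortezomib and 5.47 in mock.

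Immediate early genes, which respond to growth signals within the hour, held both directions as deposited. JUND, an AP-1 subunit, had 13.6 with LU-102, 75.3 with bortezomib and 15.8 in mock, a difference of -2.39. FOSB, another subunit, had 0.709 with LU-102, 4.57 with bortezomib and 1.31 in mock, and reached the smallest sum of 5.04 only through bortezomib. FOSL1 lay on the other side, at 13.3 with LU-102, 3.06 with bortezomib and 14.2 in mock. As deposited JUN was equal within 0.02 on the log2 scale, at 17.1 with LU-102, 17.3 with bortezomib and 18.4 in mock. Over the 22 genes 8 (36.4%) were higher and 2 (9.09%) lower, against 43.1% and 1.36% of all genes. Their median was 0.77 (-0.15 relative). On the relative scale none was higher and 5 were lower. Under each of the other scalings none of 20 was higher and 8 were lower.

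The protein-coding genes lowest with LU-102 at a level of at least 5 with either agent included single-exon genes and a gene that holds a short RNA. WDR74, a ribosome assembly factor, had 42.7 with LU-102, 344 with bortezomib and 43.2 in mock. Its annotated span, chr11:62832342-62841809 on the minus strand in GENCODE 29, holds the U2 RNA gene RNU2-2P at chr11:62841619-62841809 on the same strand, so reads of the pair cannot be told apart. RTL8C, a gene derived from a retrotransposon on the X chromosome, had 11.3 with LU-102, 39.2 with bortezomib and 10.6 in mock. All 3 measured genes of its family were 2-fold or more lower, against 1.36% of all genes. CEBPB, a stress-responsive transcription factor, had 6.22 with LU-102, 14.1 with bortezomib and 5.01 in mock. SELENOM, CTSF, TP53I13, HES4, ZNF358 and MIDN were also among the lowest 12, with differences of -1.90 to -1.35 and LU-102 levels between 1.24 and 2.10.

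Exon number went with the difference at its low end. Among 3858 coding genes with a GENCODE 29 transcript and without the listed histones, the 130 genes of a single exon had a median of 0.57, and the other exon classes had medians of 0.91 to 0.98. Of the single-exon genes 30.8% were 2-fold or more higher with LU-102, against 43.1% of all genes. Another 6 of them (4.62%, against 1.36% of all genes) were lower, JUND, RTL8C, RTL8A, RTL8B, CEBPB and CCDC85B. Single-exon genes also stood at the high end, with HASPIN, a mitotic kinase, at 12.9 with LU-102 and 0.635 with bortezomib. KTI12 had 4.26 with LU-102 and, near the floor with few reads, 0.0131 with bortezomib. The quintile of genes with the highest GC content had a median of 0.66, against 0.92 to 0.99 in the other 4. By transcript length the medians went from 1.08 in the shortest quintile to 0.86 in the longest. Over all 4192 genes, by level with LU-102, medians went from 0.57 in the lowest quintile to 1.5 in the highest, where the level is itself one side of the ratio. These features overlap, and their separate parts were not tested.

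**Figure D5:**
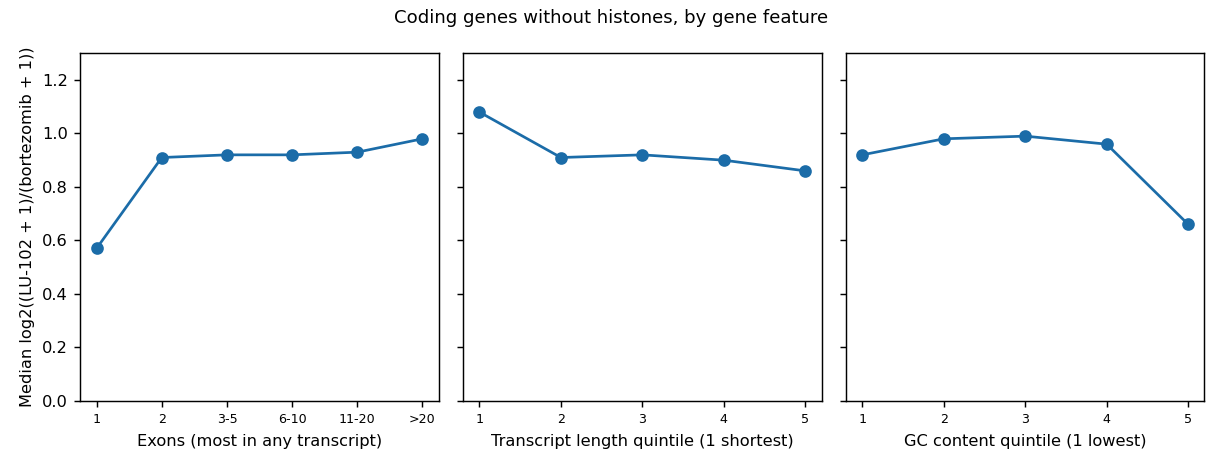
Median log2 difference between LU-102 and bortezomib of coding genes without histones, by number of exons (most in any transcript), by quintiles of transcript length and of GC content. Single-exon genes at 0.57 and the quintile of highest GC content at 0.66 lie below the other classes.

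Genes of abundant cell structure and metabolism were above the bulk. Shares of genes 2-fold or more higher in this paragraph stand against 43.1% of all genes. In quintile 4 and in the highest quintile of LU-102 level that share was 65.3% and 70.0%. Actin and tubulin genes had 25 of 28 higher (89.3%) and a median of 1.61 (0.70 relative), with 4 or 5 higher and none lower under the other scalings. In this list TUBB4B, a beta-tubulin, had 115 with LU-102, 12.7 with bortezomib and 112 in mock. Glycolytic enzymes had 11 of 15 higher (73.3%), with a median of 1.52 (0.60 relative), and 1 or 3 higher under those scalings. GAPDH, a glycolytic enzyme, had 198 with LU-102, 17.5 with bortezomib and 181 in mock. LGALS1, a galectin of the mesenchymal list, had 59.3 with LU-102, 5.50 with bortezomib and 48.4 in mock, and this list had 8 of 11 higher (72.7%) with a median of 1.40 (0.49 relative), and 2 higher as scaled. Of the 4 luminal epithelial genes measured 2 were higher and none 2-fold lower, with a median of 1.19 (0.28 relative). KRT18, KRT19 and KRT8, keratins of simple epithelium, had differences of 2.38, 1.44 and 0.95, and CLDN4, a tight junction gene, had -0.70, at 20.05 with LU-102, 33.3 with bortezomib and 18.1 in mock. Splicing factors had 28 of 43 higher (65.1%), or 4 higher and 1 lower as scaled, with a median of 1.14 (0.22 relative), which turned to -0.10 relative in other settings. HNRNPK, an RNA-binding protein, had 22.2 with LU-102, 2.32 with bortezomib and 24.4 in mock.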

How the data were processed

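The study sequenced 5 total RNA libraries of the MDA-MB-231 line with reads of 150 bases, per the labels' protocols. The processing notes of the submitters name Partek and hg38. For the aligner, annotation, strand and normalization the sources used here give no name. The authors deposited a normalized signal per gene and library. In single-exon short RNAs with fewer than about 40 reads this signal times gene length was a multiple of the worth of 0.5 reads in 30 of 31 genes with LU-102, 24 of 25 with bortezomib and 31 of 32 in mock, within 0.1 of such a step, which was fitted on these genes. Reads were recovered this way for 62 short RNAs, those with more reads included, with exact Clopper-Pearson intervals at 95%. Another 7 columns that repeat a library were identical and not used.

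Levels were compared on log2(level + 1) with a minimum level of 1 with either agent and a 2-fold threshold. The calls were tried on simulated libraries that held no shift shared by most genes. That trial therefore does not cover the shift between these 2 libraries. Each difference is LU-102 over bortezomib, and no p-value was made from 1 library per condition. The 42 gene lists and the genes named were chosen with earlier results of these data known. Named genes are the 12 highest and lowest coding genes and the 8 highest and lowest noncoding genes at a level of at least 5, up to 4 members of each list, catalytic subunits, identity genes and those next to the thresholds. Others, among them HSPA1A, HSPA6, DNAJB1, SCARNA6, SNORD133, SNORA23, EIF4A2, RPS28, PSMB2, DDIT3, JUN, CSF2, FOSB, HASPIN and KTI12, were chosen after their values were seen. Values of a few genes under the rule are not reported here. Symbols of 4124 genes matched RefSeq, and gene features came from GENCODE 29. Alternatives were another pseudocount, minimum level, scaling, centring, gene set and threshold. Scripts ran in Python 3.11.15 (pandas 2.3.3, numpy 2.4.6), intervals came from scipy 1.17.1, and plots from matplotlib 3.10.9.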

Additional observations from a re-analysis of the deposited data

How the results depend on the processing

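The difference between the agents depended on the scaling, on the pseudocount and on the minimum level, and the cause was not tested. Genes 2-fold or more higher with LU-102 numbered 444 at a pseudocount of 5, 2895 at 0.1, 898 at a level of at least 5, 200 under median-of-ratios scaling and 227 at an equal protein-coding sum, against 1805. Genes lower numbered 37 at a pseudocount of 5, 433 and 381 under those scalings and 23 without short and ribosomal RNAs, against 57. By construction a 1.5-fold threshold gave 3058 higher and 110 lower, and a 4-fold one gave 288 and 28. Relative to the all-gene median, higher genes numbered 508 at a pseudocount of 0.1, 150 at a level of at least 5, 742 at 1.5-fold and 64 at 4-fold, against 333. Lower genes numbered 55 at a pseudocount of 5, 630 at 0.1, 655 at 1.5-fold and 51 at 4-fold, against 269. The all-gene median was 0.36 at a pseudocount of 5, 1.46 at 0.1, 1.35 at a level of at least 5, and -0.12 and -0.04 under the scalings.

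Some relative list medians crossed 2-fold. NF-kB targets reached -1.32 at a pseudocount of 0.1 and -1.23 at a level of at least 5, and interferon-induced genes 1.02 and 1.33 in these settings. RNase P, MRP, 7SL and 7SK RNAs had -0.69 at a pseudocount of 5, and small Cajal body RNAs -0.52 there and -0.83 at a level of at least 5. Ribosomal proteins had 0.92 and 0.80 at pseudocounts of 5 and 0.1, 0.72 at a level of at least 5, 0.70 and 0.71 under the scalings, and 0.88 when centred on genes of like level. Under median-of-ratios scaling these called genes changed sign: NFE2L1 -0.04, UBE2S -0.05, CYCS -0.03 and SARS1 -0.01. Under median-of-ratios scaling and at an equal protein-coding sum these did: MT2A -0.11 and -0.02, BST2 -0.34 and -0.26, TARS1 -0.15 and -0.08, PRPF4 -0.12 and -0.05, DNAJB1 -0.28 and -0.20, HSP90AA1 -0.30 and -0.21, SNORD133 -0.18 and -0.09, SNORA23 -0.19 and -0.10. Centring on genes of like level leaves counts as deposited with no value. No paired analysis was possible because each condition has 1 library, and no library could be left out. Low read numbers limit short RNAs such as RNU12, and bortezomib levels near the floor such as those of DDIT3 and KTI12.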

Other observations

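Gene groups not described above lay above, near and below the bulk of genes. Interferon-induced genes had 7 of 8 members 2-fold or more higher with LU-102 than with bortezomib (87.5%, against 43.1% of all genes), with a median of 1.5 (0.58 relative). Under the other scalings 3 of 7 were higher and 1 lower. IFITM3, which blocks virus entry, had 38.1 with LU-102, 2.95 with bortezomib and 35.5 in mock. Metal response genes had 4 of 6 (66.7%) higher, or none higher and 1 of 5 lower as scaled, and MT1E, a metallothionein, had 161 with LU-102, 39.6 with bortezomib and 150 in mock. Cholesterol synthesis genes were below the bulk with 5 of 18 (27.8%) higher and a median of 0.68 (-0.23 relative), a value that was 0.01 at a pseudocount of 5. DHCR7, the last enzyme of the pathway, had 9.403 with LU-102, 2.40 with bortezomib and 8.14 in mock. Targets of p53 had 2 of 9 (22.2%) higher and a median of 0.35 (-0.56 relative), with GADD45B at 10.5 with LU-102, 12.2 with bortezomib and 10.4 in mock.

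Long noncoding RNAs numbered 81, with a median of 0.47 and 21 of them (25.9%, against 43.1% of all genes) 2-fold or more higher. The only one lower was LINC01002, at 0.779 with LU-102, 9.07 with bortezomib and 0.535 in mock. It was at 0.863 or less in every other library, so it reached the smallest sum of 5.04 only through bortezomib. Its place on the lower side is therefore no separate result. The 13 measured host genes of small nucleolar RNAs, the SNHG genes with GAS5, had a median of 0.45. Of these 5 were higher (38.5%, near the 43.1% of all genes) and none lower. Transcribed pseudogenes had a median of 0.95 over 61. ANXA2P2 led them at 243 with LU-102, 17.2 with bortezomib and 258 in mock, and its reads may include those of its parent gene.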
